A study of Mus musculus with 12 samples.

Results

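The genes described here are 33 named for their roles in megakaryocytes and platelets, picked by symbol and matched by Ensembl identifier to the 56748 genes of the count files. Their counts were compared between Lin-Sca+Kit+ (LSK) BM cells with and without active BCR::ABL1. Of the 33, 30 had enough counts to be tested among 18438 genes, and Gp1bb, Gp6 and Myl9 did not. Of the 30 tested, 21 fell in BCR::ABL1+ cells (70.0%), where 29.0% of all genes tested fell. Selp rose, where 30.6% of all genes tested rose, and 8 passed the test in neither direction.

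Donor marrow was that of the SCLtTA/BCR-ABL (DTG) mouse. Its SCLtTA transgene expresses the tetracycline transactivator in stem and progenitor cells, and tetracycline (TET) in the drinking water keeps the human fusion gene off there. Marrow of these CD45.2 mice went into irradiated CD45.1 B6.SJL recipients of 8 to 12 weeks, which received 2 doses of 4.25 Gy, 3 h apart. All recipients had TET for 2 weeks. It was then withdrawn for 2 weeks in the BCR::ABL1+ group (labelled CML 2wk, n = 6 libraries) and kept in the BCR::ABL1- group (labelled CTRL, n = 6 libraries), and donor CD45.2+ LSK cells were sorted for bulk RNA-seq. Both groups carried both transgenes, and both had been irradiated and transplanted. They differed in the fusion gene being switched on and in TET itself, which only BCR::ABL1- still received, and these cannot be told apart. The donor marrow was pooled from frozen marrow of DTG mice of both sexes. The labels list the CTRL samples as male and the CML 2wk samples as female, so sex and BCR::ABL1 status cannot be told apart. They do not say that each library came from its own recipient, so the p-values measure the spread between libraries.

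Megakaryocytes are the large marrow cells that shed platelets. Their differentiation is driven by thrombopoietin and by transcription factors of the GATA, FOG, ETS, RUNX and NF-E2 families, which switch on the adhesion receptors, granule proteins and cytoskeleton of the platelet. Part of this programme is already transcribed in haemopoietic stem cells, a subset of which is marked by Vwf and leans towards the platelet lineage, so megakaryocyte transcripts are found in LSK cells. In bulk libraries, fewer cells of a type and less RNA per cell cannot be told apart.

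Depth ran from 22804754 to 41832868 counts per BCR::ABL1- library and from 16150817 to 25070105 per BCR::ABL1+ library. Levels are given as CPM, counts scaled to a common library size with TMM factors. Kit and Ly6a, the genes of the sort, were at 681 to 800.0 and 27.2 to 38.3 CPM in BCR::ABL1- and at 323 to 522 and 31.4 to 74.1 CPM in BCR::ABL1+. The biological coefficient of variation was 10.8% among BCR::ABL1- and 32.6% among BCR::ABL1+ libraries. BCR::ABL1+ replicates 2 and 4 stood apart: the summed level of 12 stromal markers was 866 and 361 CPM in them, and between 64.9 and 112 CPM in the other 10 libraries. The mitochondrial share of counts was 0.816 to 1.29% in BCR::ABL1- and 2.26 to 2.97% in BCR::ABL1+, without overlap, and its part in the values of the megakaryocyte genes was not tested.

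Promoter sequence was matched in RefSeq for 27 of the 33 genes. Itgb3, Vwf, Thbs1, Angpt1, Rab27b and Gng11 had no entry. The 250 bases before the start are shown for the 5 genes with an entry and a mean of at least 2 CPM in BCR::ABL1- cells that fell by more than 2 on the log2 scale, and for Selp, the 1 gene that rose. Coordinates are those of GRCm38.p6, letters run 5′ to 3′ on the gene's strand, and capitals mark matches on either strand to AGATAA or TGATAA (the GATA motif, read as TTATCT or TTATCA on the other strand) and GGAAGT (the ETS motif, ACTTCC on the other strand).
Pf4, chr5:90772185-90772434 (+ strand): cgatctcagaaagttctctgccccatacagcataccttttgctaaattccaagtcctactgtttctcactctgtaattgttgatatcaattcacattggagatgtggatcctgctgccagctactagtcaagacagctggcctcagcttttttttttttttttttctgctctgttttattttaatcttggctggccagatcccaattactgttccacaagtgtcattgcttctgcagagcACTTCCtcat
Mmrn1, chr6:60944067-60944316 (+ strand): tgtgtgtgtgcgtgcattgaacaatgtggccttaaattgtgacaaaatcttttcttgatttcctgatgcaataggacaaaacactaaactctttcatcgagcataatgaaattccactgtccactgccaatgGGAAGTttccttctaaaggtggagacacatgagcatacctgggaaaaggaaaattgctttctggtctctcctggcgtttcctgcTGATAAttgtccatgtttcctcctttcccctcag
Gp5, chr16:30310782-30311031 (- strand): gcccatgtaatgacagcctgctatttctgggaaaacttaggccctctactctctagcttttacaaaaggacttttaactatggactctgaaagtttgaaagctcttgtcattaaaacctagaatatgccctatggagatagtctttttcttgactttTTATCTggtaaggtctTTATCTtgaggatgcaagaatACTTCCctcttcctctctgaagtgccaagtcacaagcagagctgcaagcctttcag
Trpc6, chr9:8543892-8544141 (+ strand): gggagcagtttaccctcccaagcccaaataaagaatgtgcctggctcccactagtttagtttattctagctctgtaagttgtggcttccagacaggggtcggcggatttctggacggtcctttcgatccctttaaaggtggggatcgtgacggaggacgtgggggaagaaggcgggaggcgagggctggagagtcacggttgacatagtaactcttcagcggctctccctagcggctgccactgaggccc
Treml1, chr17:48359666-48359915 (+ strand): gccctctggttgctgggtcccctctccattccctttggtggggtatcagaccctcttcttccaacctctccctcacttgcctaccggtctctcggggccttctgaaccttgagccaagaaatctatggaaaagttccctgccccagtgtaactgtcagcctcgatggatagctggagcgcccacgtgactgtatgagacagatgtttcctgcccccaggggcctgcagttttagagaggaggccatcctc
Selp, chr1:164115014-164115263 (+ strand): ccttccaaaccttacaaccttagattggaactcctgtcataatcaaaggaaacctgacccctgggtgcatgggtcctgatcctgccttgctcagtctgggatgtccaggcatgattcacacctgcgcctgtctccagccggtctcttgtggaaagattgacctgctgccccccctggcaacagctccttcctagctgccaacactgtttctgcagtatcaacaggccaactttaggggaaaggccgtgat
In these stretches, Gp5 held 2 GATA matches and 1 ETS match, Mmrn1 held 1 of each and Pf4 held 1 ETS match next to the start. The stretches of Trpc6, Treml1 and Selp held none of these letters. Over windows of 300 bases, which add the 50 bases after the start, 9 of 27 members (33.3%) held a GATA match, as did 19.0% of 27025 promoters of the same length. GGAAGT was present in 10 of 27 members (37.0%) and in 24.1% of all promoters, TGTGGT (the RUNX motif) in 4 of 27 (14.8%) and 16.9%, and TGAGTCA (the NF-E2 motif, shared with AP-1) in 3 of 27 (11.1%) and 5.17%. Among the 18 members with a window that fell, 6 held a GATA, 8 an ETS, 3 a RUNX and 1 an NF-E2 match.

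Across all 30 genes tested, 26 had a log2 fold change below 0, as did 46.5% of all genes. Their median was -0.83, and that of all genes tested was 0.07. With upper-quartile scaling these medians were -0.76 and 0.14. In 16 of the 30, every BCR::ABL1+ library lay below every BCR::ABL1- library (53.3%), which held for 20.6% of all genes. None of the 30 lay wholly above, as 17.0% of all genes did. A fall of at least 1 on the log2 scale was called for 12 of 30 (40.0%), against 5.78% of all genes. Ppbp, Tubb1, Alox12, Treml1, Clec1b and Thbs1 passed the filter on low counts through the BCR::ABL1- group. The filter asks for 6 libraries at 0.416 CPM, which 0, 1, 1, 3, 4 and 5 of their BCR::ABL1+ libraries reached. Ppbp, Tubb1, Alox12 and Treml1 are counted among the 21 that fell and among the 12 with a fall of at least 1. For these genes the filter itself favoured a fall.

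**Figure D1:**
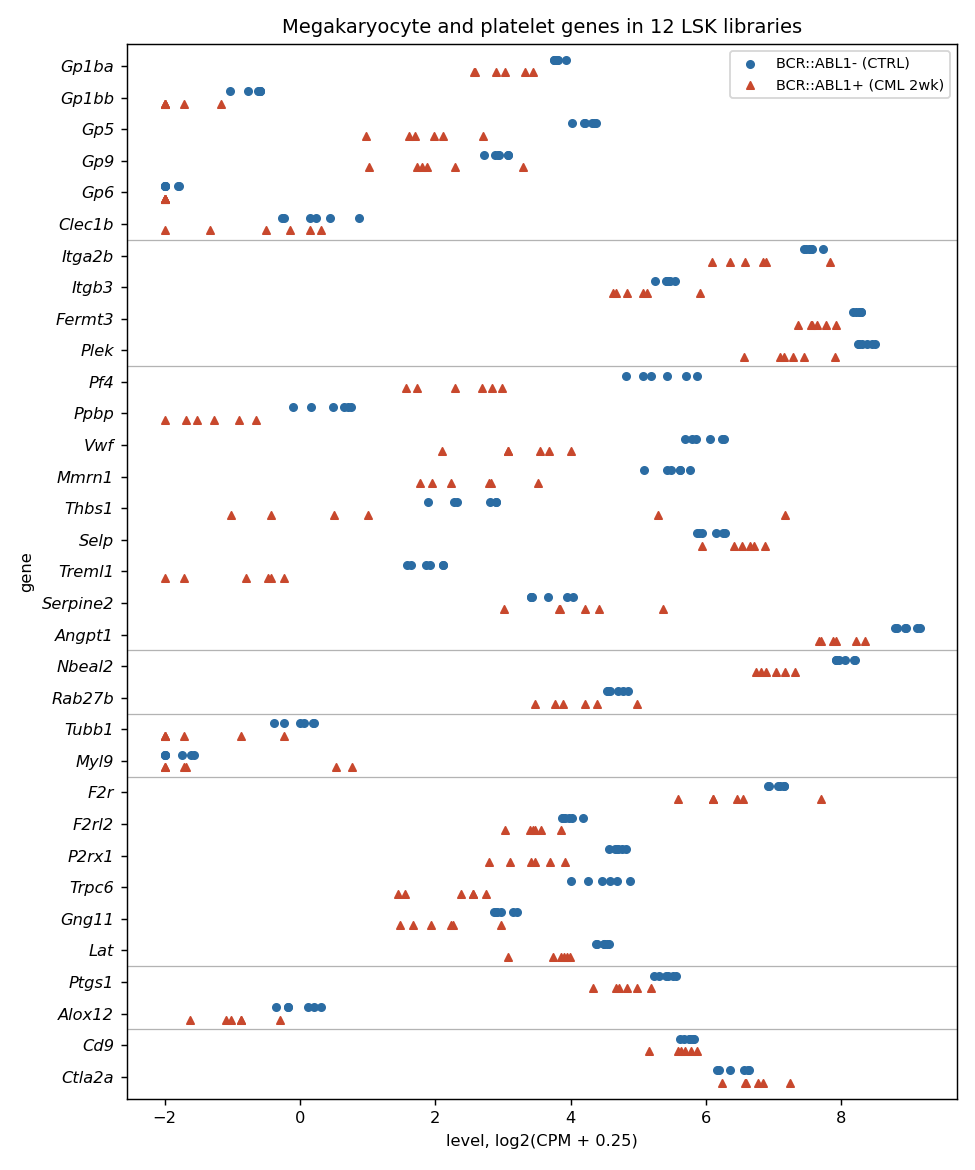
Level of each of the 33 genes in each of the 12 libraries, as log2(CPM + 0.25) on the horizontal axis; circles are the 6 BCR::ABL1- libraries, triangles the 6 BCR::ABL1+ libraries, and grey lines part the genes by role. In 16 of the 30 genes tested all triangles lie to the left of all circles.

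The members differed widely in level. Per kilobase of exon, Angpt1 (96.3 CPM per kb), Plek (73.3), Pf4 (57.8) and Fermt3 (52.8) had the highest BCR::ABL1- mean levels among the 33, followed by Ctla2a (40.9), F2r (39.8) and Itga2b (34.5). On the same scale Gp5 was at 8.57, Gp9 at 8.47, Gp1ba at 5.06, Ppbp at 1.06, Tubb1 at 0.528 and Clec1b at 0.185 CPM per kb. Gp6, the platelet collagen receptor, had 2 counts in all BCR::ABL1- libraries together and 0 in BCR::ABL1+, both under the 3 counts that a count of 0 allows in 1 library. This gene was not detectable at this depth.

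Of the adhesion receptors, the GPIb-IX-V complex binds von Willebrand factor and tethers platelets to a damaged vessel wall. Gp5, its GPV subunit, was at 16.1, 19.1 and 20.5 CPM (lowest, median and highest) in BCR::ABL1- and at 1.72, 3.35 and 6.30 CPM in BCR::ABL1+. It fell by 2.37 on the log2 scale (SE 0.226, edgeR adjusted p = 7.0e-07), with no overlap between the groups.
Gp1ba, the ligand-binding chain, was at 13.2, 13.6 and 15.0 CPM in BCR::ABL1- and 5.67, 7.55 and 10.7 CPM in BCR::ABL1+, again without overlap. It fell by 0.81 (SE 0.152, adjusted p = 0.000354).
Gp9, which the complex needs to reach the surface, had 6.34, 7.42 and 8.22 CPM in BCR::ABL1- and 1.78, 3.32 and 9.54 CPM in BCR::ABL1+. In 5 BCR::ABL1+ libraries it was under every BCR::ABL1- library, and in replicate 2 it was over all of them. The fall was 0.79 (SE 0.299, adjusted p = 0.0331). Without replicate 2, the highest BCR::ABL1+ library, the log2 fold change was -1.21. The call was lost when any 1 of BCR::ABL1+ replicates 1, 3, 5 and 6 or BCR::ABL1- replicates 1 and 4 was left out (adjusted p at most 0.0737).
Gp1bb had 68 counts over the BCR::ABL1- libraries and 5 over the BCR::ABL1+ libraries and was not tested. In the annotation used here 91.1% of its exonic bases are shared with Sept5 on the same strand, so its counts are uncertain.
Clec1b, the podoplanin receptor CLEC-2, was at a mean of 0.945 ± 0.373 CPM (SD, n = 6) in BCR::ABL1- and 0.516 ± 0.390 in BCR::ABL1+ and did not pass the test (log2 fold change -0.84, SE 0.522, adjusted p = 0.177).

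The fibrinogen receptor is the integrin of Itga2b (CD41) and Itgb3 (CD61), and kindlin-3, encoded by Fermt3, activates it. Itga2b was at 175, 186 and 213 CPM in BCR::ABL1- and at 67.7, 105 and 228 CPM in BCR::ABL1+. The highest of these was replicate 2, and the other 5 BCR::ABL1+ libraries, at 118 CPM or less, were below all BCR::ABL1- libraries. The fall was 0.68 (SE 0.222, edgeR adjusted p = 0.0165), and it was 0.99 without replicates 2 and 4.
Itgb3 followed the same pattern, with 37.7 to 46.5 CPM in BCR::ABL1-, 24.5 to 34.8 CPM in 5 BCR::ABL1+ libraries and 59.7 CPM in replicate 2. It did not pass the test with all libraries (log2 fold change -0.32, SE 0.178, adjusted p = 0.138). Without replicate 2, the highest BCR::ABL1+ library, the log2 fold change was -0.56.
Fermt3 was at 290, 309 and 314 CPM in BCR::ABL1- and 164, 194 and 241 CPM in BCR::ABL1+. It fell by 0.61 (SE 0.0801, adjusted p = 1.32e-05), with no overlap. Plek, pleckstrin, a protein kinase C substrate of platelets, was at 302, 324 and 361 CPM in BCR::ABL1- and 94.6, 149 and 239 CPM in BCR::ABL1+, a fall of 1.07 (SE 0.160, adjusted p = 4.77e-05) without overlap.

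Of the 9 tested genes of granule cargo and the granule membrane, 6 fell and 1 rose, where 29.0% and 30.6% of all genes tested did. Pf4, the platelet factor 4 chemokine of the alpha granule, was at 27.9, 39.5 and 57.9 CPM in BCR::ABL1- and at 2.72, 5.43 and 7.65 CPM in BCR::ABL1+. The ratio of the means was 8.01, and the fall was 2.99 on the log2 scale (SE 0.256, edgeR adjusted p = 2.75e-07).
Vwf, which carries factor VIII and bridges platelets to collagen, was at 51.3, 62.1 and 76.4 CPM in BCR::ABL1- and 4.02, 9.85 and 15.9 CPM in BCR::ABL1+. It fell by 2.66 (SE 0.239, adjusted p = 4.19e-07), a 6.32-fold lower mean. Mmrn1, multimerin 1, the factor V carrier of the alpha granule, was at 33.8, 46.7 and 53.9 CPM in BCR::ABL1- and 3.17, 5.59 and 11.2 CPM in BCR::ABL1+, a fall of 2.92 (SE 0.252, adjusted p = 2.99e-07).
These 3 genes did not overlap between groups, and their falls were 3.25, 2.80 and 3.09 without replicates 2 and 4. Replicate 4 was the highest BCR::ABL1+ library for all 3, so leaving it out favours a larger fall and is no test.
Treml1, the TLT-1 receptor of the granule membrane, was at 2.75, 3.47 and 4.08 CPM in BCR::ABL1- and 0, 0.398 and 0.600 CPM in BCR::ABL1+. Its total fell from 635 to 44 counts, and the fall was 3.32 (SE 0.433, adjusted p = 1.29e-05), the largest among the 30. Treml1 passed the filter on low counts through the BCR::ABL1- group, as did Ppbp. Ppbp, the precursor of platelet basic protein, was near the detection limit with 209 counts in BCR::ABL1- and 20 in BCR::ABL1+, a fall of 2.76 (SE 0.496, adjusted p = 0.000235).
Angpt1, the angiopoietin ligand of the Tie2 receptor, was the most abundant member and is made by stem cells as well as megakaryocytes. It was at 444, 492 and 572 CPM in BCR::ABL1- and 204, 239 and 327 CPM in BCR::ABL1+, a fall of 0.99 (SE 0.117, adjusted p = 4.91e-06) without overlap. An antisense gene shares 14.2% of its exonic bases.

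The other granule genes were Selp, Thbs1 and Serpine2. Selp encodes P-selectin, which moves from the granule to the surface and binds leukocytes. It was at 58.3, 65.9 and 77.9 CPM in BCR::ABL1- and 61.5, 96.2 and 117 CPM in BCR::ABL1+. It rose by 0.48 (SE 0.130, edgeR adjusted p = 0.00556), and BCR::ABL1+ replicate 6, the lowest, lay within the BCR::ABL1- range while the other 5 lay above it. The rise was 0.38 (adjusted p = 0.0242) without replicates 2 and 4. Opposite-strand genes share up to 9.9% of its exonic bases.
Thbs1, thrombospondin 1, an adhesive glycoprotein of the alpha granule, was at 3.47, 5.73 and 7.22 CPM in BCR::ABL1-. In BCR::ABL1+ it was at 143 CPM in replicate 2 and 38.8 CPM in replicate 4, and at 0.245 to 1.76 CPM in the other 4, all under the BCR::ABL1- range. With all libraries it did not pass the test (log2 fold change 2.46, SE 1.12, adjusted p = 0.0708). Without the 2 high libraries the log2 fold change was -2.61, which is no test, since they held the high values of this gene.
The same 2 libraries held the high stromal marker sums, with Col1a1 at 221 and 89.4 CPM in replicates 2 and 4, at most 0.345 CPM in the other BCR::ABL1+ libraries and at most 7.11 CPM in BCR::ABL1-. Their part in the Thbs1 values was not tested. Serpine2, protease nexin 1, a thrombin inhibitor, had a mean of 12.5 ± 2.55 CPM in BCR::ABL1- and 19.4 ± 11.5 in BCR::ABL1+ (log2 fold change 0.63, SE 0.299, adjusted p = 0.0811). Replicate 2 was its highest library at 41.1 CPM, and without it the log2 fold change was 0.25 (adjusted p = 0.298).

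**Figure D2:**
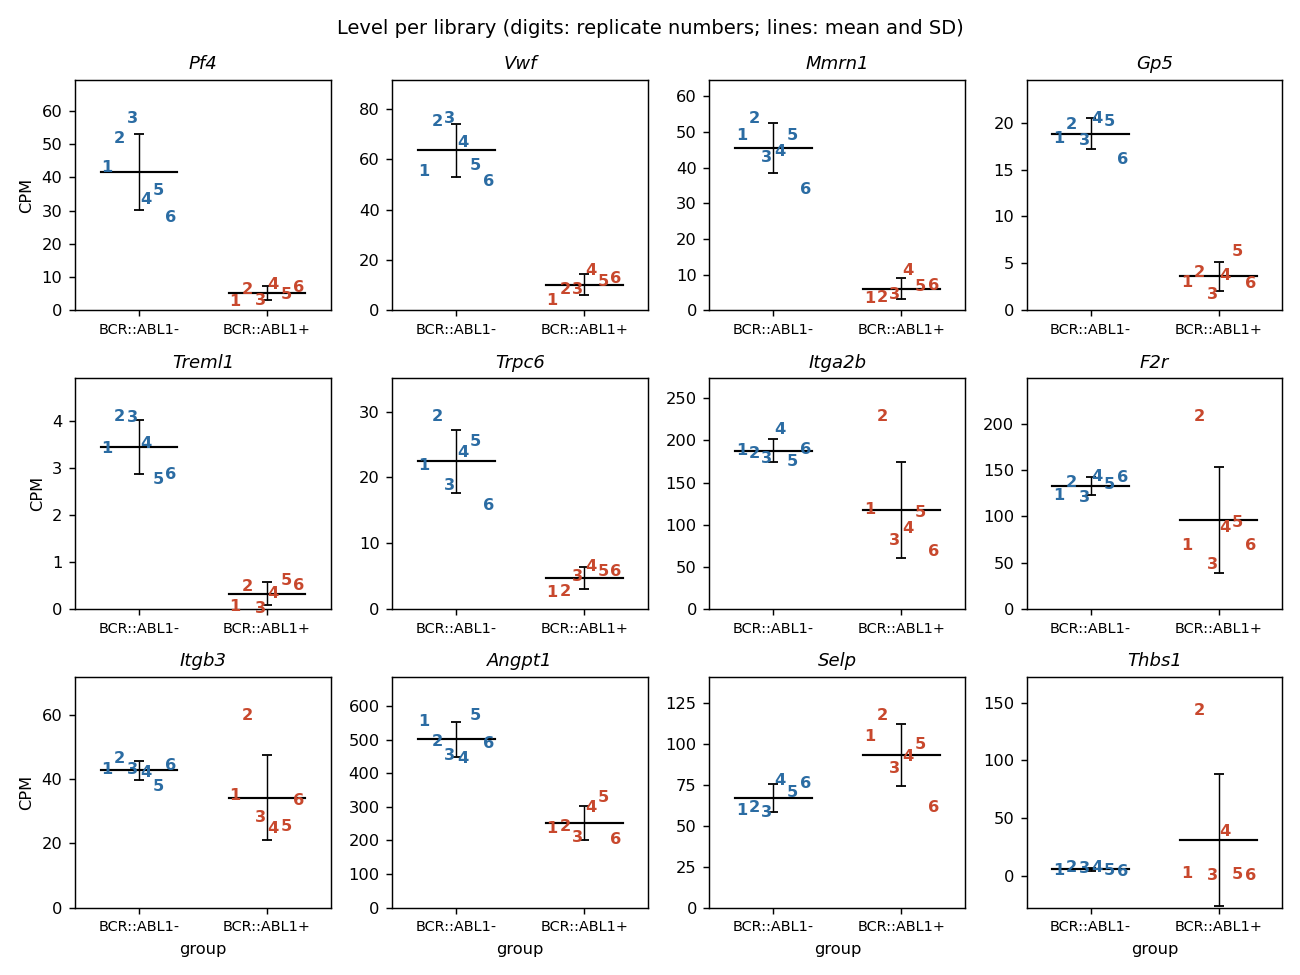
CPM of 12 of the genes in each library; digits are replicate numbers, and lines are the mean and SD of the 6 libraries of a group. Pf4, Vwf, Mmrn1, Gp5, Treml1, Trpc6 and Angpt1 are separated between groups, replicate 2 is the highest BCR::ABL1+ library for Itga2b, F2r and Itgb3, and replicates 2 and 4 carry Thbs1.

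Of the 2 genes of granule formation and release, Nbeal2, whose loss empties the alpha granule in gray platelet syndrome, was at 242, 257 and 295 CPM in BCR::ABL1- and 106, 124 and 159 CPM in BCR::ABL1+. It fell by 1.04 (SE 0.0983, edgeR adjusted p = 6.36e-07) and did not overlap. Rab27b, a small GTPase of dense granule secretion, was at 22.9 to 28.6 CPM in BCR::ABL1-, at 10.8 to 20.7 CPM in 5 BCR::ABL1+ libraries and at 31.4 CPM in replicate 2. It had a log2 fold change of -0.47 (SE 0.200, adjusted p = 0.055), which was -0.71 without replicate 2, the highest BCR::ABL1+ library.
Of the cytoskeletal genes, Tubb1, the platelet beta-tubulin of the marginal band, was at a mean of 0.743 ± 0.158 CPM in BCR::ABL1- and 0.158 ± 0.244 in BCR::ABL1+, from 135 and 18 counts. It fell by 2.26 (SE 0.692, adjusted p = 0.0114), and 1 BCR::ABL1+ library, replicate 4, lay within the BCR::ABL1- range. Myl9, a myosin light chain, was not tested. It had 6 counts in BCR::ABL1- and 58 in BCR::ABL1+, with 1.45 and 1.19 CPM in replicates 2 and 4 and at most 0.0613 CPM in the other BCR::ABL1+ libraries.

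Of the signalling genes, 5 of 6 fell, where 29.0% of all genes tested fell. Trpc6, a calcium channel, was at 15.8, 22.8 and 29.2 CPM in BCR::ABL1- and 2.49, 5.29 and 6.51 CPM in BCR::ABL1+, a fall of 2.27 (SE 0.234, edgeR adjusted p = 1.38e-06). P2rx1, the ATP-gated channel of platelets, was at 23.6, 25.7 and 28.0 CPM in BCR::ABL1- and 6.68, 10.6 and 14.8 CPM in BCR::ABL1+, a fall of 1.27 (SE 0.152, adjusted p = 5.5e-06).
Neither channel gene overlapped between the groups. Lat, the adaptor that couples collagen receptor signals to phospholipase C, fell by 0.70 (SE 0.128, adjusted p = 0.000268), from 20.6 to 23.5 CPM in BCR::ABL1- to 8.21 to 15.7 CPM in BCR::ABL1+. Gng11, a G-protein gamma subunit, fell by 0.86 (SE 0.223, adjusted p = 0.00406), from 7.03 to 9.04 CPM to 2.55 to 7.62 CPM, and replicate 2 alone reached the BCR::ABL1- range.
The protease-activated receptors answer to thrombin. F2rl2 (PAR3), the thrombin-binding cofactor on mouse platelets, was at 14.4, 15.2 and 17.9 CPM in BCR::ABL1- and 7.92, 10.8 and 14.3 CPM in BCR::ABL1+. It fell by 0.51 (SE 0.124, adjusted p = 0.00265), and replicate 2 was the lowest library here.
F2r (PAR1), which mouse platelets do not rely on, was at 120, 135 and 143 CPM in BCR::ABL1- and 47.7, 78.4 and 207 CPM in BCR::ABL1+. Replicate 2 was above and the other 5 were below all BCR::ABL1- libraries. It did not pass the test with all libraries (log2 fold change -0.47, SE 0.262, adjusted p = 0.134). Without replicate 2, the highest BCR::ABL1+ library, the log2 fold change was -0.86.

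Both eicosanoid enzymes fell, where 29.0% of all genes tested fell. Ptgs1 (COX-1), the source of thromboxane precursors and the target of aspirin in platelets, was at 37.3, 42.8 and 46.9 CPM in BCR::ABL1- and 19.8, 27.2 and 36.1 CPM in BCR::ABL1+, a fall of 0.61 (SE 0.117, edgeR adjusted p = 0.000413). Alox12, platelet 12-lipoxygenase, fell by 1.43 (SE 0.372, adjusted p = 0.0042) on 133 and 33 counts.
The remaining genes, Cd9 and Ctla2a, passed the test in neither direction. Cd9, a tetraspanin abundant on platelets, had a mean of 53.2 ± 2.86 CPM in BCR::ABL1- and 49.6 ± 7.73 in BCR::ABL1+ (log2 fold change -0.10, SE 0.0946, adjusted p = 0.364). Ctla2a, a cathepsin inhibitor with a near-identical neighbour, Ctla2b, whose reads the counting could split, had 86.2 ± 12.4 and 107 ± 25.8 CPM (log2 fold change 0.31, SE 0.141, adjusted p = 0.0683).

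**Figure D3:**
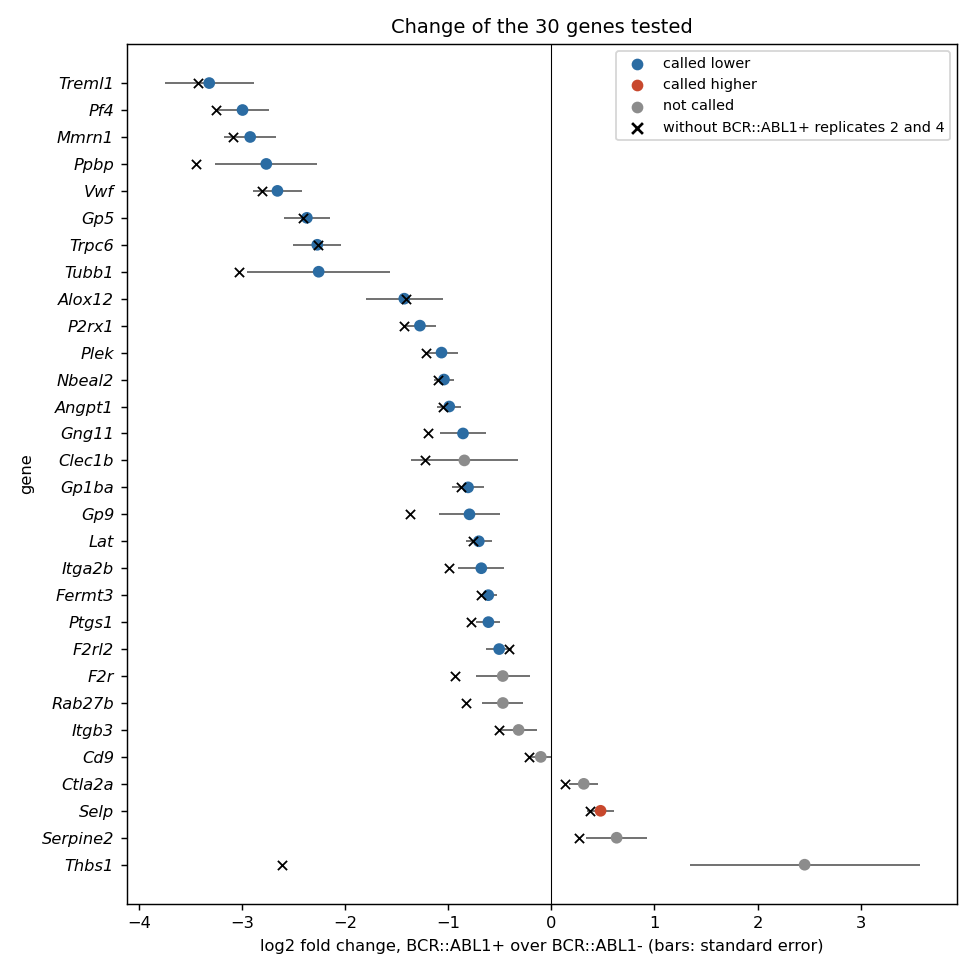
Log2 fold change of the 30 genes tested, BCR::ABL1+ over BCR::ABL1-, with standard errors as bars; colour gives the call and crosses the value without BCR::ABL1+ replicates 2 and 4. The fall reaches 3.32 for Treml1, and the cross of Thbs1 lies at -2.61, opposite its value of 2.46 with all libraries.

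The 6 BCR::ABL1+ libraries did not share 1 level. Replicate 2 was the highest of the 6 for 15 of the 30 genes tested, replicate 4 for 7 and replicate 5 for 6, whereas replicate 3 was highest for 0 and lowest for 12. The summed level of the 33 genes was 1086 to 1486 CPM in 5 BCR::ABL1+ libraries, 2023 CPM in replicate 2 and 2243 to 2427 CPM in BCR::ABL1-. Replicate 2 was above every BCR::ABL1- library for, among others, Itga2b, Itgb3, Gp9, F2r, Rab27b and Thbs1, yet within the range of the other BCR::ABL1+ libraries for Pf4 (6.20 CPM), Vwf (8.22 CPM), Mmrn1 (3.64 CPM) and Trpc6. Without it, 24 of the 30 genes fell, with 31.8% of all genes. Without replicates 2 and 4, 26 fell, with 32.0% of all genes, and Selp rose. Since replicate 2 was the highest of the 6 for 15 of these genes, leaving it out favours a fall, and these counts are no test.

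**Figure D4:**
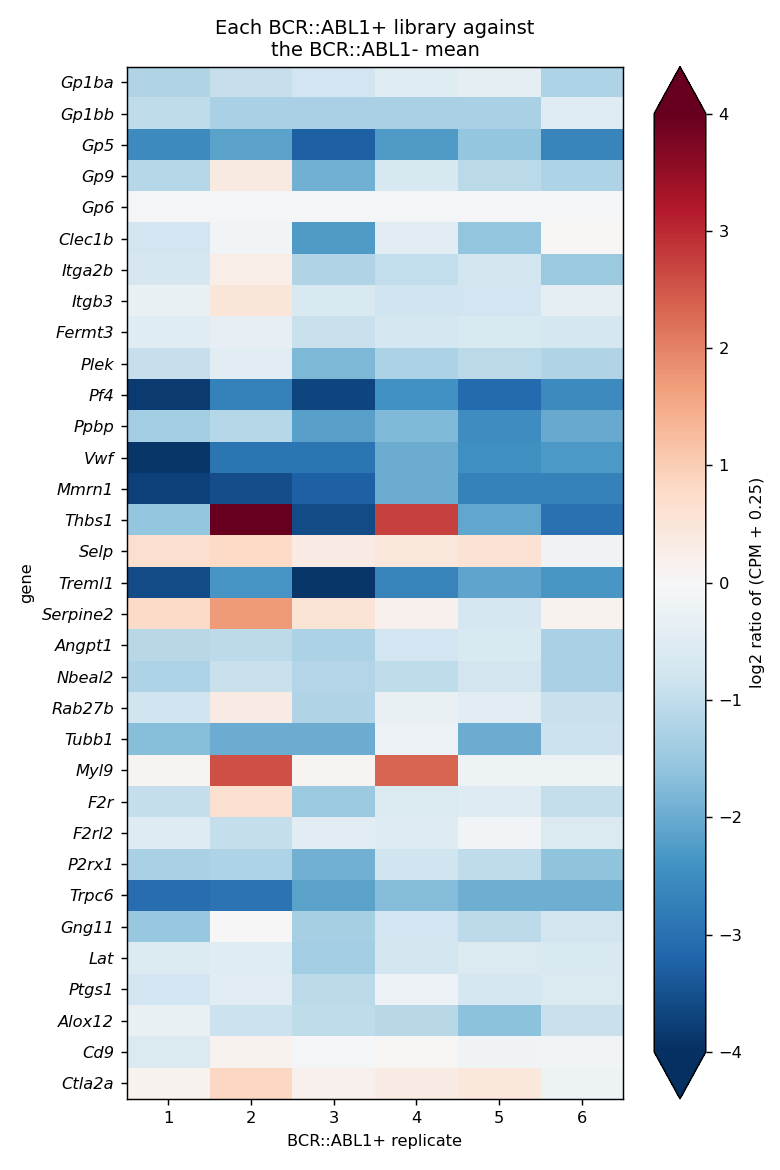
Each BCR::ABL1+ library (columns, by replicate number) against the BCR::ABL1- mean, as the log2 ratio of CPM + 0.25; blue is lower, red is higher, and the colour scale ends at 4 either way. Pf4, Vwf, Mmrn1, Treml1 and Trpc6 are blue in all 6 columns, while Thbs1 and Myl9 are deep red in replicates 2 and 4.

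Markers of other cells were read in the same fit, in which 29.0% of all genes fell and 30.6% rose. Of 10 mast cell and basophil markers, a lineage that shares Gata2 and several of these surface proteins with megakaryocytes, 8 rose and 0 fell, and their sum went from 102 to 205 CPM in BCR::ABL1- to 451 to 2599 CPM in BCR::ABL1+, highest in replicate 2 and with Cpa3 the most abundant. Of 12 erythroid markers 9 fell, with sums of 118 to 238 and 26.8 to 72.0 CPM, with Car1 the most abundant. Of 10 endothelial markers 5 fell and 1 rose (390 to 446 and 233 to 279 CPM, Pecam1 the most abundant), and of 10 stem and multipotent progenitor markers 8 fell (2278 to 2635 and 1180 to 1641 CPM, Cd34 the most abundant). Of 12 stromal markers, among which Pdgfrb was the most abundant, 6 were tested. Col1a1, Col1a2 and Col3a1 rose with all libraries. Without BCR::ABL1+ replicates 2 and 4 their log2 fold changes were -3.47, -2.01 and -3.15. Those 2 libraries stood apart by these same stromal markers, so the values without them are no test. Of 10 monocyte and macrophage markers 4 rose (149 to 194 and 359 to 601 CPM, Ccr2 the most abundant), of 10 neutrophil markers 3 rose and 4 fell (2229 to 4655 and 2396 to 6589 CPM, Mpo the most abundant), and of 10 lymphoid markers 1 rose and 4 fell (123 to 196 and 116 to 259 CPM, Nkg7 the most abundant). None of these markers was at 0 in all libraries, and the part of any of these lists in the values of the megakaryocyte genes was not tested.

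A further 100 genes of the same pathway, in 4 lists, were read in the same fit, and 97 were tested. Of these, 59 fell (60.8%, with 29.0% of all genes) and 12 rose (12.4%, with 30.6% of all genes), with a median log2 fold change of -0.43.
All 21 transcription factors and thrombopoietin signalling genes tested fell, with a median of -0.77 and none rising; Thpo, with 3 counts, was not tested. Gfi1b, a repressor needed for the erythroid and megakaryocyte lineages, fell by 1.94, from a mean of 28.6 ± 1.88 to 7.43 ± 2.04 CPM.
Gata1, the master factor of the lineage, fell by 1.82, from 18.5 ± 2.73 to 5.21 ± 1.60 CPM, and Zfpm1, which encodes its cofactor FOG1, by 1.78, from 188 ± 9.58 to 54.8 ± 13.5 CPM. Gata2, its partner in earlier progenitors, fell by 1.10, from 220 ± 15.3 to 103 ± 28.9 CPM. None of these 4 genes overlapped between groups.
Runx1 and Nfe2 fell by 0.34 and 0.33. Fli1, an ETS factor, fell by 0.16 (edgeR adjusted p = 0.0408) from 237 ± 10.9 to 212 ± 18.9 CPM, with overlap.

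Among 27 tested receptor and signalling genes other than the members, 15 fell and 3 rose. Beside this and the 2 lists below, 29.0% of all genes tested fell and 30.6% rose. Tbxa2r, the thromboxane receptor, fell by 1.74 (27.3 ± 1.95 to 8.14 ± 2.63 CPM), and Pear1, a platelet aggregation receptor, by 1.51 (102 ± 7.68 to 35.7 ± 8.35 CPM). Cd36 and Gucy1b1 fell by 1.58 and 1.54, Cd36 with 1 library, BCR::ABL1+ replicate 6, at 8.63 CPM and above the BCR::ABL1- range. Ptgir, the receptor of the platelet inhibitor prostacyclin, rose by 0.93 (8.81 ± 0.942 to 16.8 ± 3.96 CPM, no overlap), Rap1b, a GTPase of integrin activation, rose by 0.65, and Cd84 rose by 0.16, a call that was lost with no filter on low counts (adjusted p = 0.284).
F2rl3 (PAR4), the thrombin receptor of mouse platelets, was at 45.2 ± 2.55 and 39.8 ± 5.56 CPM and did not pass the test (log2 fold change -0.18, SE 0.0863, adjusted p = 0.0848). Mpig6b had 54 and 32 counts and was not tested.
Of the 29 other granule genes 13 fell and 9 rose, the latter near the share of all genes, and their median was 0.06. Slc35d3, a transporter of dense granule formation, fell by 2.32, Unc13d, a priming factor of granule release, by 1.09, and Stx11 by 0.65. Clu, Sparc and Pdgfa rose by 5.08, 4.74 and 2.66, but all 3 were highest in replicates 2 and 4. Without these libraries their log2 fold changes were -0.20, -0.10 and -1.21, which is no test, since they held the high values. Srgn, the granule proteoglycan, F13a1 and Snap23, chosen after their values were seen, rose by 1.23, 1.87 and 0.84 without overlap. F5, coagulation factor V, did not pass the test (log2 fold change 0.25, SE 0.379, adjusted p = 0.590).
Of 20 cytoskeletal genes 10 fell and 0 rose, among them Zyx by 1.16, Mylk by 1.02 and Myh9, the non-muscle myosin heavy chain of the platelet, by 0.97.

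**Figure D5:**
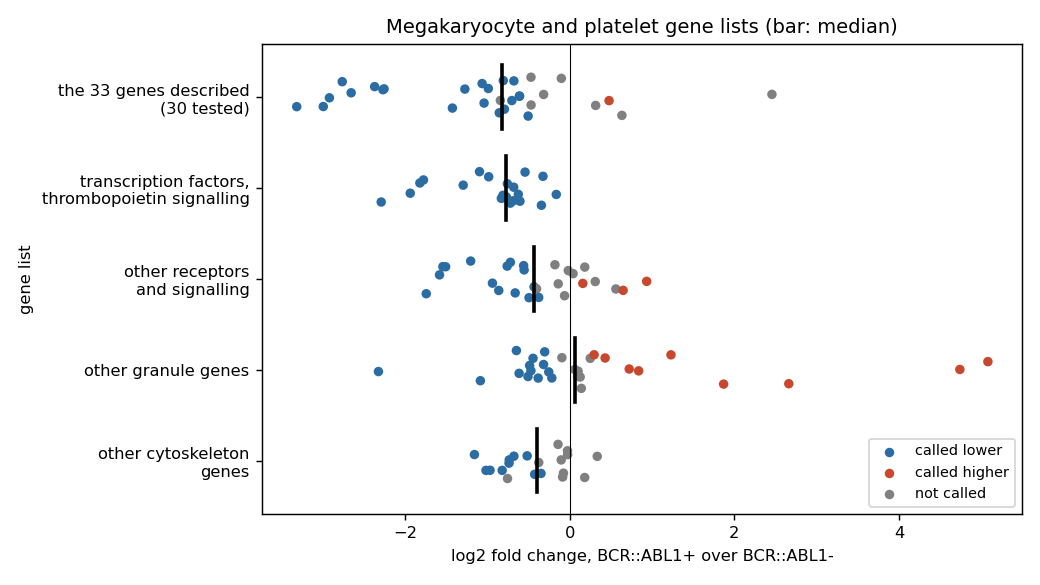
Log2 fold change of the members and of the 4 other lists, one point per gene tested, coloured by call, with the median as a bar. The 21 transcription factor and thrombopoietin signalling genes all lie below 0, and the granule list is spread from -2.32 to 5.08.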

How the data were processed

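The deposited values were raw counts per Ensembl gene, 1 file per library, which the authors made from RNA-seq reads of sorted LSK cells. The submitters' processing notes name FastQC 0.11.9, fastp 0.23.2, STAR 2.7.10a, featureCounts 2.0.1, DESeq2 1.36.0 and GRCm39, with no roles, while the methods of the study name Trim Galore!, HISAT2, featureCounts and hg38. The annotation release and the strand setting are not given in the sources used here, so overlapping, antisense and paralogous genes are uncertain and no gene coordinates of the files are printed. Exon lengths and overlaps came from GENCODE on GRCm38, by Ensembl identifier.

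Groups and replicate numbers were taken from the labels. Genes kept by filterByExpr were tested by quasi-likelihood in edgeR 4.0.16 on the counts with TMM factors (R 4.3.3), with Benjamini-Hochberg adjustment over all 18438 genes, and called at an adjusted p under 0.05. Fold changes are BCR::ABL1+ over BCR::ABL1-. No pair of libraries agreed within sampling noise (lowest chi-square per degree of freedom 3.777). Limits from counts cover counting error only. Summaries and plots used Python 3.11.15, pandas 2.3.3, numpy 2.4.6 and matplotlib 3.10.9.

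The members, the lists and the naming rule were chosen with earlier results of these data known. All 33 members are named, with a fixed set of further genes, of which 1 is not reported here, and from each of the 4 other lists up to 3 genes each way with the largest change among those called with a mean log2 CPM of at least 1. Alternatives were DESeq2 1.42.0 (size factors, test), upper-quartile factors, other filters and thresholds, the replicate block and leaving out libraries.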

Additional observations from a re-analysis of the deposited data

Results flagged for a closer look

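In 15 of 117 groups of 6 values examined, 1 library stood apart from the other 5 by Dixon's criterion. For independent groups chance would give about 1 in 20, or 5.85. These groups share the same 12 libraries and some genes were named for large changes, so that number is only a rough guide. BCR::ABL1+ replicate 2 was the library in 10 of the 15. Its values, each the highest of its group, were 9.54 CPM for Gp9 (next 4.67), 228 for Itga2b (next 118), 59.7 for Itgb3 (next 34.8), 143 for Thbs1 (next 38.8) and 207 for F2r (next 93.6). Among the other pathway genes they were 24.5 CPM for Ptgir (next 16.6), 35.2 for F5 (next 11.4), 137 for Sparc (next 37.5), 36.5 for Pdgfa (next 1.30) and 1115 for Myh9 (next 764).

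The other 5 lay in other libraries. Gp1ba was at 15.0 CPM in BCR::ABL1- replicate 2 (next 13.8). Gp1bb was at 0.197 CPM in BCR::ABL1+ replicate 6 (next 0.0567), which rests on single counts. Cd36 was at 8.63 CPM in BCR::ABL1+ replicate 6 (next 2.06), Mylk at 17.0 CPM in BCR::ABL1+ replicate 4 (next 9.75), and Lat was lowest, at 8.21 CPM, in BCR::ABL1+ replicate 3 (next 13.1).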

How the results depend on the processing

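The number of the 30 genes called lower was 20 to 24 when single libraries were left out, and 18 at an adjusted p under 0.01. The 24 came without BCR::ABL1+ replicate 2, which favours a fall. There, 31.8% of all genes were called lower, against 29.0% with all libraries. At an adjusted p under 0.01, fewer of all genes were called lower as well. The number called higher was 2 with upper-quartile factors, with DESeq2's test, with no filter, with the replicate block and without number 6 in both groups, ran from 1 to 3 when single libraries were left out, and was 0 where an absolute log2 fold change of at least 1 was required. That threshold left 12 genes lower among the members, 5 higher and 15 lower among the other pathway genes, and 1755 higher and 1066 lower among all genes. Same-numbered libraries of the groups did not deviate together (r from -0.125 to 0.0679), and 1 of 6 libraries matched its own number best. A low r does not settle whether the numbers pair the libraries. With the replicate block, 24 members were called lower, while fewer of all genes were called lower than without it. Thbs1 reversed to -0.32 with the block and to -2.61 without BCR::ABL1+ replicates 2 and 4. Without these 2, F5, Clu, Sparc and Pdgfa reversed to -0.37, -0.20, -0.10 and -1.21, and without replicate 2 alone, F5 and Pdgfa were at -0.38 and -0.76, the lowest of their values with 1 library left out, of which the highest were 0.42 and 2.91. Replicate 2 held the highest value of F5, Clu, Sparc and Pdgfa, so the values without it are no test. The cause was not tested. Gp9 lost its call in 7 settings (adjusted p 0.0570 to 0.0737), Fli1 in 10, Cd36 in 8 and Cd84 in 2. Besides the reversals above, Pdgfa lost its call in 8 settings, and Clu and Sparc lost theirs with the replicate block. F2r, Itgb3 and Rab27b were called lower in 3, 3 and 5 settings, among them those that left out replicate 2, their highest BCR::ABL1+ library. Ctla2a was called higher in 5 settings and Serpine2 in 1. Thbs1 was called higher in 4 and lower in 1, the latter without its 2 high libraries, and Cd9 was called lower in 1. Counts limit Ppbp, Tubb1, Alox12, Treml1 and the 3 genes not tested.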
